A study of Mus musculus with 4 samples.

Results

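Cadherins and the catenins that bind them were followed through 4 single-cell RNA libraries of adult mouse epidermis. The set is a list of 6 genes out of 32285 genes in each matrix: the cadherins Cdh1, Cdh3, Cdh4 and Cdh13, and the catenins Ctnna1 and Ctnnd1. They were chosen with earlier results of these libraries known, so the contrast between experimental and control keratinocytes behind that choice is described here and not tested. The study deleted ΔNp63, the isoform of p63 that dominates in basal keratinocytes, from adult epidermis. Control mice were DNp63fl/fl and experimental mice DNp63fl/fl;K14-CreT2, in which the keratin 14 promoter drives a tamoxifen-dependent Cre recombinase in basal keratinocytes and in the follicle and gland cells that use this promoter. Both genotypes received 200 mg/kg tamoxifen daily for 5 days by mouth, so the drug was common to all groups. Cells were taken 1 day or 1 week after ablation, from back skin of mice aged 2 to 17 months, both sexes in equal shares. The epidermis was loosened in 0.25% trypsin at 4 or 37 °C. Which ages, sexes, number of animals or digestion went into which library is not given in the sources used here.

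Cadherins are calcium-dependent adhesion proteins whose outer domains pair between neighbouring cells. Classical cadherins such as E-cadherin (Cdh1), P-cadherin (Cdh3) and R-cadherin (Cdh4) carry a cytoplasmic tail. Catenin delta-1 (Ctnnd1) binds the part of the tail near the membrane and keeps the cadherin at the cell surface. Beta-catenin or plakoglobin binds the end of the tail and recruits alpha-catenin (Ctnna1), the link to actin. T-cadherin (Cdh13) has no such tail and is held in the membrane by a lipid anchor. In skin E-cadherin is made in all living layers of the epidermis, and P-cadherin is known from basal cells and the hair follicle.

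The genes are given by identifier and by position (mouse build GRCm38, GENCODE annotation M21). Cdh1 (ENSMUSG00000000303) spans bases 106603351 to 106670246 of chromosome 8, plus strand. Cdh3 (ENSMUSG00000061048) lies next to it, from 106510891 to 106557297 on the same strand, and ends 46053 bases before Cdh1 starts. Cdh13 (ENSMUSG00000031841) is on the same chromosome from 118283733 to 119324921. Cdh4 (ENSMUSG00000000305) lies on chromosome 2 from 179442431 to 179899373, plus strand, and Ctnnd1 (ENSMUSG00000034101) on chromosome 2 from 84600071 to 84650765, minus strand. Ctnna1 (ENSMUSG00000037815) lies on chromosome 18 from 35118859 to 35254779, plus strand. All values are for whole genes and do not separate transcripts.

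Each group was 1 library, which leaves every difference without replicates and without a test. Levels are counts per 1000000 gene UMIs (CPM), summed over the cells of a class, where a UMI marks 1 captured RNA molecule. Intervals are exact 95% intervals that cover counting error only. The 1-day libraries came from a 3′ kit and the 1-week libraries from a 5′ kit, so levels were compared within a time point. Gene UMI totals ranged from 68191870 to 179736563 over 18413 to 33552 barcodes, and 15626 to 23651 cells per library passed the filters. At 1 week 11604 of 19879 control and 11307 of 15626 experimental cells were then left out before clustering. Their profiles lay close to that of the barcodes with the fewest UMIs (free-RNA-like). At 1 day such barcodes were kept. Barcodes were listed down to 500 UMIs in both controls but only to 1368 and 1059 UMIs in the 1-day and 1-week experimental libraries. The 1-day libraries had 299 cell barcodes in common and the 1-week libraries 661, and pairs across times had 9 to 18. Cell classes come from clusters named by markers, with the 6 genes kept out of the clustering, and are called "-like". Clusters of experimental cells with Krt8 among their leading genes, called Krt8-led, were kept apart from keratinocytes. Trp63 itself stood at 404 CPM in control keratinocytes of 1 day against 134 CPM in experimental ones, and 435 against 156 CPM at 1 week, but these counts do not separate the ΔN isoform and so do not check the deletion.

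At 1 day Cdh3, Cdh4 and Cdh13 were lower in the experimental library, Cdh1 and Ctnna1 slightly higher, and Ctnnd1 within counting error in keratinocytes as a whole. At 1 week Cdh1, Cdh3, Cdh4, Cdh13 and Ctnnd1 were lower and Ctnna1 slightly higher. Basal-like cells were 4720 of 20519 keratinocytes in the 1-day control and 450 of 16387 in the 1-day experimental library. At 1 week they were 1890 of 6976 and 20 of 3172. The pooled ratios thus compare libraries of different make-up, and the part of make-up in them was not tested. All 6 genes passed the filter of 100 UMIs in both libraries together. At 1 day 3 of the 6 were lower by 1.5 times or more and 0 higher, where 5.84% of 12286 genes passing that filter were lower and 11.3% higher by as much. At 1 week 3 of the 6 were lower by that much and 0 higher, beside 9.91% of 12033 genes lower and 16.9% higher. With equal weight of classes, described next, the count lower by 1.5 times was 1 at each time. At 1 week Cdh3 and Ctnnd1 lie within rounding of that limit, just inside and just outside it (log2 ratios -0.59 and -0.58), and the count ran from 1 to 4 over the settings tried. The keratinocytes include clusters with 2 or more markers of other cell types among their 10 leading genes. At 1 day this was 1 cluster of 129 control and 2242 experimental cells, led by Flg and Flg2 together with Cd74, Cd207 and H2 genes of antigen-presenting cells. At 1 week they were 3 clusters of 780, 289 and 76 control cells and 5, 1 and 0 experimental cells, with Cd74 and H2 genes. Without them, a setting added after seeing the data, the 1-day log2 ratios were 0.20 for Cdh1, -1.12 for Cdh3, -3.27 for Cdh4, -0.91 for Cdh13, 0.22 for Ctnna1 and -0.05 (-0.08 to -0.02) for Ctnnd1. Those of 1 week were -0.42, -0.64, -4.95, -0.68, 0.11 and -0.61 in the same order. The genes were chosen on this contrast, so nothing is read from the excess.

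The median log2 ratio of experimental to control over the 6 genes was -0.48 at 1 day and -0.59 at 1 week, beside 0.01 and 0.08 over all genes passing the filter. The split between lower and higher genes depends on the scale. With totals that leave out mitochondrial and ribosomal-protein genes all ratios shifted by -0.10 at 1 day and -0.09 at 1 week, with 8.44% of genes lower and 9.27% higher at 1 day and 12.2% and 14.3% at 1 week. With each class given equal weight (14 classes or larger unclassed clusters at 1 day and 5 at 1 week, a setting chosen once the data had been seen) the medians were -0.23 and -0.34.

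**Figure D1:**
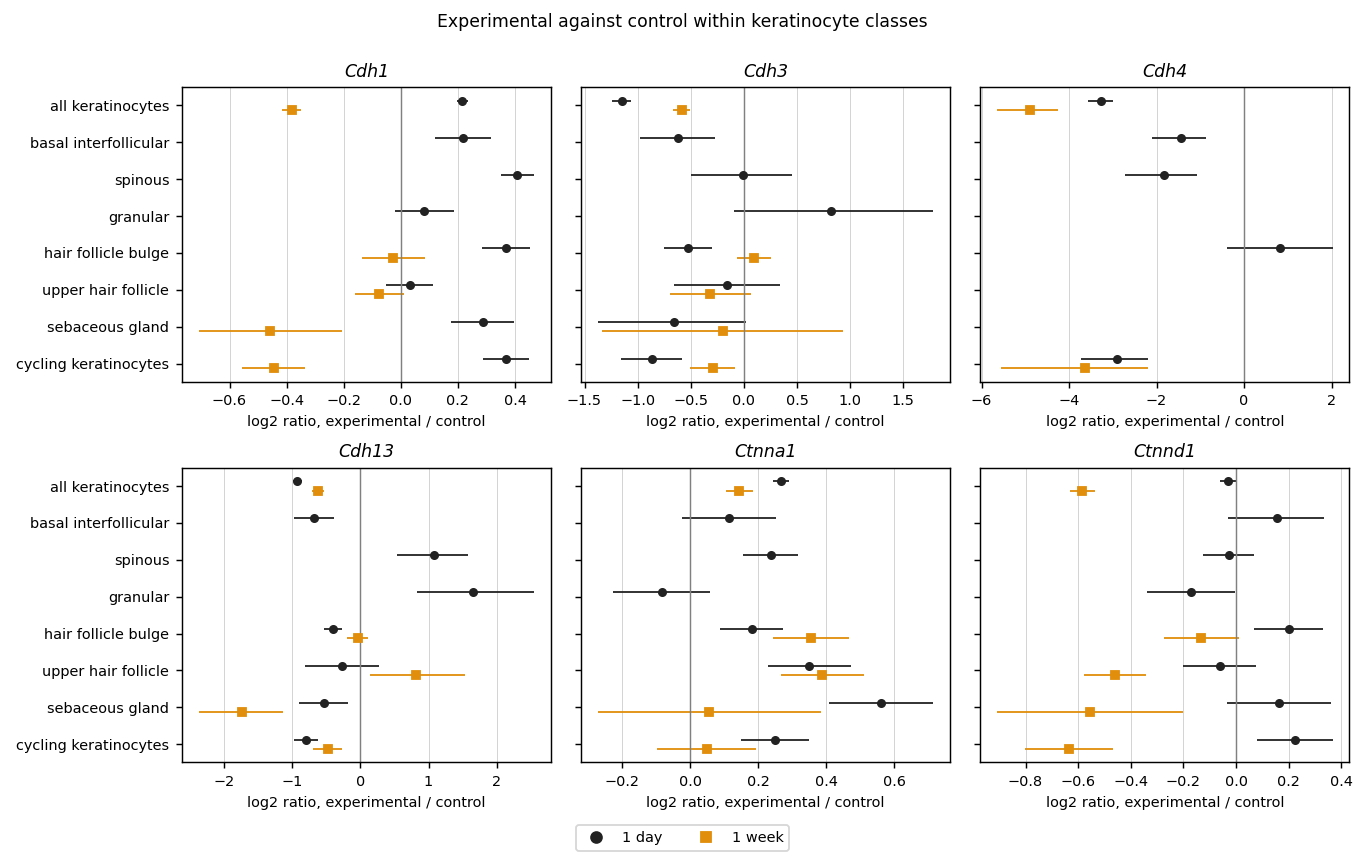
Log2 ratio of CPM, experimental over control (horizontal axis), for each of the 6 genes in all keratinocytes and in each keratinocyte class (rows, each "-like"); black circles are 1 day, orange squares 1 week, and bars are exact 95% intervals for counting error, with classes under 50 cells in a library, under 20 UMIs in all or at 0 UMIs left out. Cdh4 sits farthest to the left in all keratinocytes (-3.27 at 1 day, -4.90 at 1 week), and Cdh1 lies right of 0 at 1 day (0.21) and left of it at 1 week (-0.38).

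Cdh1, which encodes E-cadherin, was the most abundant of the 6 in keratinocytes of every library. Control cells of 1 day held 473 CPM (469 to 477) of it and experimental cells 548 CPM (543 to 554), for a log2 ratio of 0.21 (0.20 to 0.23). The order at 1 week was the other way, with 483 CPM (477 to 488) against 370 CPM (363 to 377) and a ratio of -0.38 (-0.41 to -0.35). With equal weight of classes the ratios were 0.18 and -0.24.

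Among control classes at 1 day, Cdh1 was highest in upper follicle-like cells (622 CPM), followed by basal-like (533 CPM) and spinous-like cells (494 CPM), with intervals that did not overlap between neighbours. Sebaceous-like, cycling and granular-like cells followed at 397, 395 and 384 CPM and did not differ beyond counting error. Bulge-like cells, which carry markers of the hair follicle stem cell niche, were lowest of the keratinocytes at 278 CPM. In the 1-week control basal-like (573 CPM) and upper follicle-like cells (535 CPM) were highest, and bulge-like (275 CPM) and sebaceous-like cells (249 CPM) lowest and within counting error of each other.

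Within classes at 1 day Cdh1 was higher in the experimental library in 7 of 14, lower in 1 and within counting error in 6. Granular-like cells were within counting error, at 384 and 407 CPM. Their Cdh1 ratio was 0.24 (0.14 to 0.33) at finer clustering, 0.81 (0.72 to 0.90) with doublets kept and 0.00 (-0.11 to 0.11) without free-RNA-like barcodes. Spinous-like cells went from 494 to 655 CPM (log2 ratio 0.41), bulge-like from 278 to 359 CPM (0.37) and sebaceous-like from 397 to 484 CPM (0.29), while upper follicle-like cells were at 622 and 636 CPM. Spinous-like cells came mainly from different clusters in the 2 libraries, 3424 of 4755 control cells from a cluster led by Mt4 and Krt1, and 507 of 865 experimental cells from one led by Serpinb12 and Gm94. Of the sebaceous-like cells 468 of 593 in the control, but 285 of 565 in the experimental library, came from the cluster led by Plin2 and Akr1c18. At finer clustering the sebaceous-like ratio for Cdh1 was 0.32 (0.21 to 0.43). Cycling cells went from 395 to 510 CPM, but at finer clustering their log2 ratio for Cdh1 was 0.00 (-0.10 to 0.10).

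At 1 week 5 classes could be compared for Cdh1, since the experimental library held only 20 basal-like and 8 spinous-like cells and the control 34 granular-like cells. Cdh1 was lower in 3 and within counting error in 2. At finer clustering the libraries held 76 and 714 granular-like cells, with a Cdh1 ratio of -0.26 (-0.46 to -0.06). Cycling cells went from 476 to 350 CPM (log2 ratio -0.45), with 163 of 291 control cells in a cluster led by Cenpf and 170 of 175 experimental cells in one led by Ube2c; within the latter cluster alone they were at 444 and 350 CPM. Bulge-like (275 and 270 CPM) and upper follicle-like cells (535 and 508 CPM) did not differ beyond counting error. Sebaceous-like cells went from 249 to 181 CPM, but 143 of 156 control cells came from a cluster led by Akr1c18 and 185 of 327 experimental cells from one led by Fa2h, and at finer clustering the log2 ratio for Cdh1 was 0.18 (-0.17 to 0.54).

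Fibroblast-like cells, which should not make E-cadherin, also had Cdh1 UMIs. They held 122 CPM in the 1-day control and 540 CPM in the 1-day experimental library, the latter as much as its keratinocytes. At 1 week they held 28.2 and 19.4 CPM, but the fibroblast-like classes of the 2 times differ in make-up. The 1-day cluster was led by Tnfaip6 and Serpine2 and the larger 1-week cluster by Dcn and Col1a1. A 1-week cluster led by Crabp1 and Tnfaip6 (174 control and 114 experimental cells) had mixed markers and was not counted as fibroblast-like. After thinning every cell to 2000 UMIs, a Cdh1 UMI was found in 58.4% of control and 63.0% of experimental keratinocytes at 1 day, and in 20.5% and 66.8% of fibroblast-like cells. The experimental share in keratinocytes is thus no higher than in these cells. Antigen-presenting-like cells of the same library held 190 CPM of Cdh1 (164 to 218), against 161 CPM in the control. T cell-like cells went from 261 to 499 CPM and melanocyte-like cells from 354 to 519 CPM. Free-RNA-like barcodes were 53.8% and 41.9% of the 1-day fibroblast-like cells and were left out at 1 week. The part of such RNA in the higher 1-day level was not tested. Without barcodes close to the free-RNA profile the 1-day log2 ratio for Cdh1 was again 0.21. At 1 week the shares were 55.7% and 46.2% in keratinocytes and 2.34% and 1.82% in fibroblast-like cells. Unthinned, the shares in keratinocytes were 83.2% and 82.5% at 1 day (median depth 4651.5 and 3897 UMIs), against 86.5% and 77.1% at 1 week (6580 and 6829 UMIs). Fibroblast-like cells of 1 day had 41.0% and 82.0% unthinned, at 4251 and 3696 UMIs. Too shallow for thinning were 2455 and 3287 keratinocytes at 1 day, 323 and 227 at 1 week, and 392 of 470 and 78 of 289 fibroblast-like cells at 1 day.

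**Figure D2:**
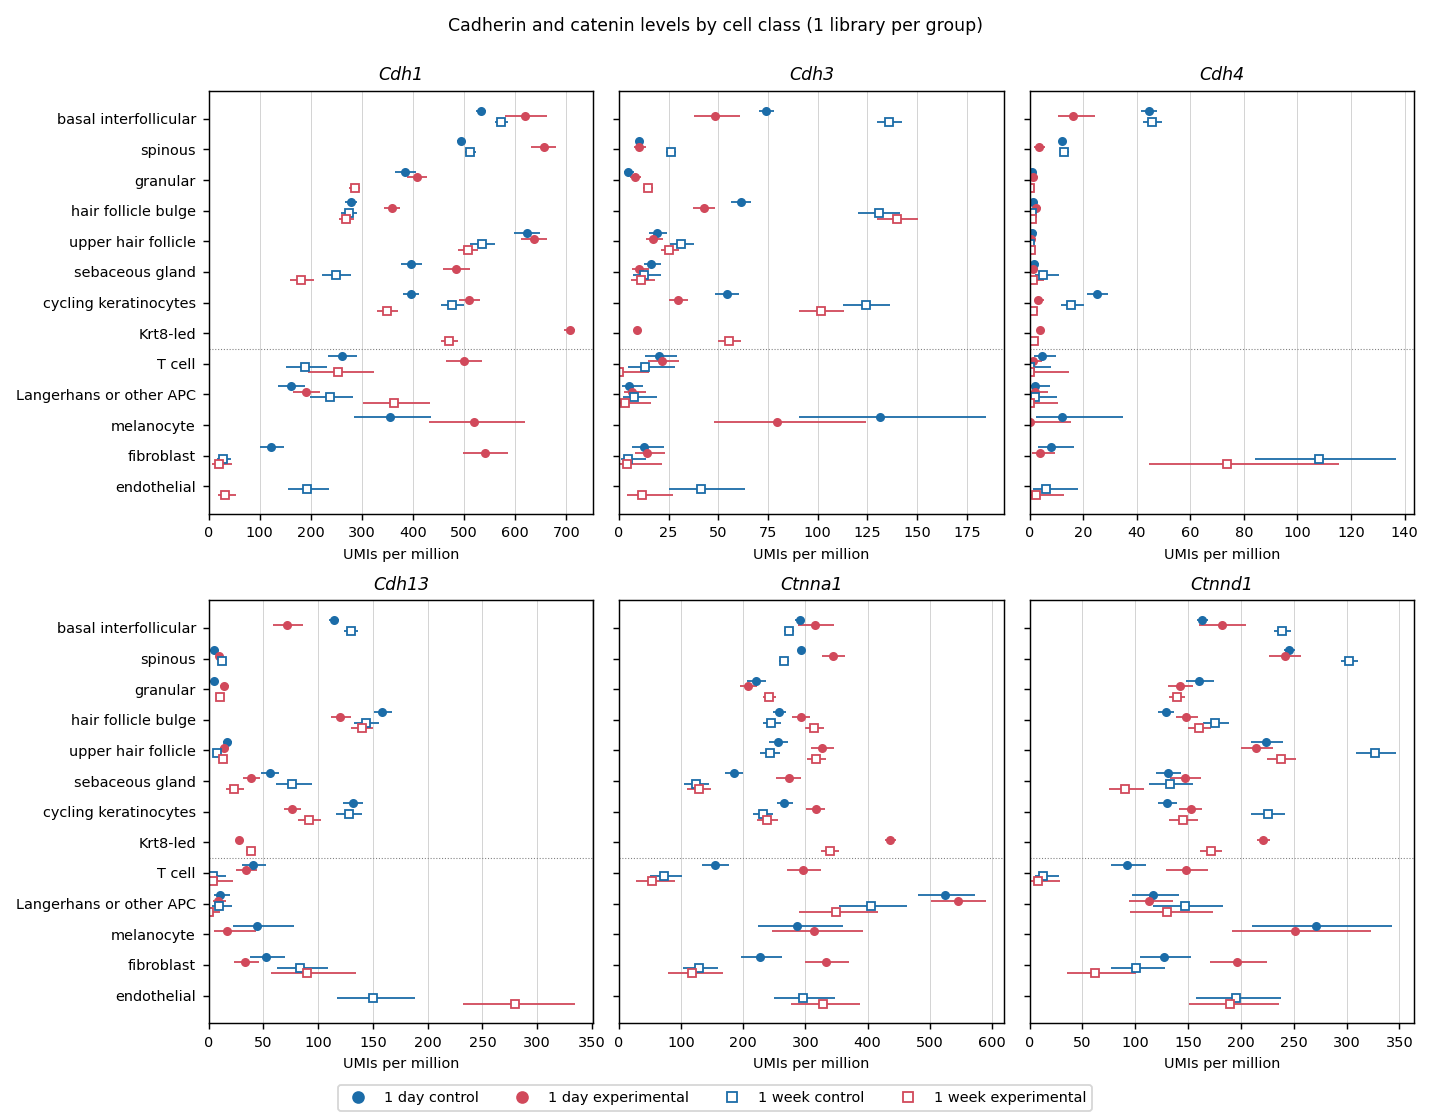
CPM (horizontal axis, linear from 0) of each gene in each cell class (rows, each "-like"; APC, antigen-presenting cell); blue is control and red experimental, filled circles 1 day and open squares 1 week, bars exact 95% intervals, and the dotted line parts epithelial from other cells. In the Cdh1 panel 1-day experimental fibroblast-like cells stand at 540 CPM against 122 CPM in the control, while Cdh4 at 1 week is highest in fibroblast-like cells (108 and 73.9 CPM).

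Cdh3, which encodes P-cadherin, was lower in experimental keratinocytes at both times. Control cells of 1 day held 39.0 CPM (37.8 to 40.2) and experimental cells 17.6 CPM (16.6 to 18.6), for a log2 ratio of -1.15 (-1.24 to -1.06). The 1-week levels were 81.1 CPM (78.8 to 83.5) and 54.0 CPM (51.4 to 56.7), a ratio of -0.59 (-0.67 to -0.51). With equal weight of classes the ratios were -0.56 and -0.17. At 1 week that setting also leaves out basal-like, spinous-like and granular-like cells, which were too few in 1 library.

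By class, Cdh3 was a gene of basal-like, bulge-like and cycling cells. In the 1-day control these stood at 74.2, 61.3 and 54.1 CPM, the last 2 within counting error of each other, against 19.3 CPM in upper follicle-like, 16.2 CPM in sebaceous-like, 10.2 CPM in spinous-like and 4.47 CPM in granular-like cells. In the 1-week control basal-like (136 CPM), bulge-like (131 CPM) and cycling cells (124 CPM) did not differ beyond counting error, and spinous-like cells were at 25.9 CPM. Those spinous-like cells are a mixed class. Its 2 largest clusters, with 1111 of the 1387 cells, were at 36.3 and 1.88 CPM of Cdh3 and together at 18.5 CPM (16.4 to 20.9). The rest came from clusters of 122, 97 and 57 cells led by Crabp1 and Vim, by immunoglobulin genes, and by Fa2h and Ifitm6, with 53.5, 86.1 and 57.8 CPM. In the 2 largest clusters Cdh1 was at 523 CPM, Cdh4 at 13.4 CPM and Ctnnd1 at 313 CPM.

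Within those classes the 1-day difference held. Cdh3 went from 74.2 to 48.4 CPM in basal-like cells (log2 ratio -0.62, -0.98 to -0.27), from 61.3 to 42.7 CPM in bulge-like cells (-0.52, -0.75 to -0.30) and from 54.1 to 29.6 CPM in cycling cells (-0.87, -1.15 to -0.59). Free-RNA-like barcodes, left out at 1 week but kept at 1 day, were 11.9% and 41.8% of these basal-like cells and 70.4% and 64.0% of the bulge-like cells. Without them the Cdh3 ratio was -0.60 (-1.04 to -0.19) in basal-like, -0.60 (-0.89 to -0.30) in bulge-like and -0.86 (-1.16 to -0.57) in cycling cells, a setting added after seeing the data. With doublets kept it was -0.24 (-0.43 to -0.05) in bulge-like cells, and neither that setting nor finer clustering gave enough basal-like cells in both libraries. Cdh3 was lower in 8 of 14 classes, higher in 0 and within counting error in 6. Spinous-like cells stood at 10.2 CPM in both libraries. At 1 week bulge-like cells were at 131 and 140 CPM, a log2 ratio of 0.10 (-0.06 to 0.26), and cycling cells at 124 and 102 CPM (-0.29, -0.50 to -0.08). The 1-week bulge-like class includes 172 control and 213 experimental cells of a cluster with Pthlh, Aspn, Robo2 and Sema3e among its leading genes. A 1-day cluster with these leading genes was left without a class, so the bulge-like classes of the 2 times differ in make-up. Of the 5 classes compared at 1 week, Cdh3 was lower in 2 and within counting error in 3. At finer clustering granular-like cells could be compared too (76 control and 714 experimental cells), with a Cdh3 ratio of 3.24 (0.74 to 8.56).

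Shares of cells gave the same order. At 2000 UMIs per cell, Cdh3 was found in 12.8% of control and 8.71% of experimental basal-like cells at 1 day (unthinned 26.9% and 14.5%), and in 11.6% and 7.72% of bulge-like cells (unthinned 18.0% and 13.4%). Fibroblast-like cells had 6.41% (2.11 to 14.3) and 2.37% (0.774 to 5.44). At 1 week bulge-like cells had 19.4% and 24.1% (unthinned 39.8% and 47.0%), and fibroblast-like cells 0.781% and 1.82%. Keratinocytes as a whole had 8.14% and 3.62% at 1 day. All these 1-day control shares, and the 3.62%, lie inside the interval of the fibroblast-like cells of their own library, where only 78 control cells were deep enough. By level basal-like cells stood apart, with 12.7 CPM (6.34 to 22.7) of Cdh3 in control fibroblast-like cells against the 74.2 CPM of basal-like cells, and 14.1 CPM (7.88 to 23.2) against 48.4 CPM in the experimental library.

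**Figure D3:**
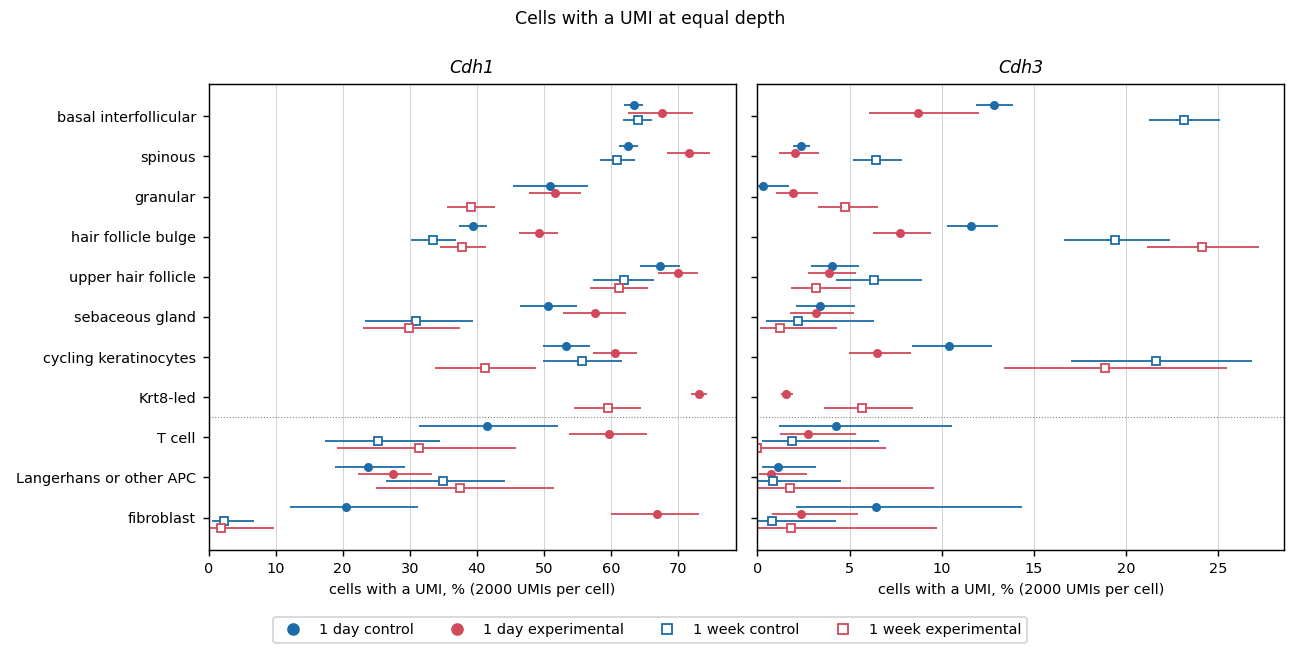
Percent of cells with at least 1 UMI of Cdh1 (left) or Cdh3 (right) after thinning each cell to 2000 UMIs, by cell class (rows, each "-like"); blue is control and red experimental, filled circles 1 day and open squares 1 week, bars exact 95% binomial intervals, and the dotted line parts epithelial from other cells. For Cdh3 the basal-like, bulge-like and cycling classes had the highest keratinocyte shares in the 1-day control, with 12.8%, 11.6% and 10.4%, and for Cdh1 the 1-day experimental fibroblast-like cells reach 66.8%.

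Inside the bulge-like class, 1 cluster at each time stood apart for Cdh3. A 1-day cluster led by Fam13a, Slc38a4, Cldn10 and Lgr5 held 103 CPM of Cdh3 in control and 64.7 CPM in experimental cells, a log2 ratio of -0.67. Its 10 leading genes also include Krtap17-1 and Wif1 but not Cd34. The 1-week cluster that has Fam13a, Slc38a4, Cldn10 and Lgr5 among its 10 leading genes held 218 and 324 CPM, a log2 ratio of 0.57 (0.31 to 0.84) over 154 and 114 cells. Hoxc13 and Krt35 are also among its leading genes and Cd34 is not, so neither cluster is shown to be stem cells of the bulge. The direction within these cells thus differed between the times, from libraries of different kits, and that difference was not tested. Cells led by Ramp1, Sncg and Cd34 at 1 day held only 21.5 and 20.2 CPM.

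In that Fam13a cluster P-cadherin outnumbered E-cadherin RNA at 1 week. It held 261 Cdh3 and 176 Cdh1 UMIs in the control and 216 and 112 in the experimental library, or 1.48 and 1.93 Cdh3 UMIs for each Cdh1 UMI. A UMI counts 1 transcript end, so no division by gene length was made, but capture may differ between genes. In all bulge-like cells the quotient was 0.476 and 0.518 at 1 week. At 1 day the Fam13a cluster had 0.469 in the control and 0.229 in the experimental library.

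Cdh4, which encodes R-cadherin, had the lowest ratio of the 6. Of all genes passing the filter, 0.0244% had a lower one at 1 day and 0.116% at 1 week. The same shares were 1.40% and 9.85% for Cdh3, 2.21% and 9.08% for Cdh13, and 44.5% and 9.94% for Ctnnd1. They were 71.5% and 16.7% for Cdh1, and 75.5% and 56.2% for Ctnna1. The 6 genes were chosen on this contrast, so nothing is read from these shares. Control keratinocytes held 15.3 CPM of Cdh4 (1649 UMIs) and experimental ones 1.58 CPM (112 UMIs) at 1 day, a log2 ratio of -3.27 (-3.56 to -3.00). At 1 week the levels were 18.5 CPM (1015 UMIs) and 0.619 CPM (19 UMIs), a ratio of -4.90 (-5.64 to -4.25). The libraries behind these pooled levels differed in their share of basal-like cells, as given above. Equal weight of classes gave -1.96 and -2.31. At 1 week that setting leaves out basal-like and spinous-like cells, and only 1 of its 5 classes had at least 20 UMIs of Cdh4.

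In control keratinocytes Cdh4 was highest in basal-like and cycling cells. In the 1-day control basal-like cells held 44.5 CPM, cycling cells 25.1 CPM and spinous-like cells 12.0 CPM, against 1.44 CPM in bulge-like, 1.03 CPM in upper follicle-like and 0.839 CPM in granular-like cells. In the 1-week control basal-like cells held 45.8 CPM, cycling cells 15.6 CPM and spinous-like cells 12.9 CPM, and bulge-like cells 0.866 CPM from 4 UMIs. Upper follicle-like cells had 0 UMIs of Cdh4, with an exact interval up to 1.06 CPM.

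At 1 day the difference in Cdh4 was also present inside the classes that express it. Of 14 classes compared it was lower in 6, higher in 0 and within counting error in 8, and only 5 had at least 20 UMIs. At 1 week it was lower in 1 of 5 classes, the cycling cells, and within counting error in 4. Cycling cells were the only 1-week class with at least 20 UMIs. At 1 day basal-like cells went from 44.5 to 16.3 CPM (log2 ratio -1.45, -2.10 to -0.86; 24 UMIs in 450 experimental cells), spinous-like from 12.0 to 3.39 CPM (-1.83, -2.71 to -1.07) and cycling cells from 25.1 to 3.34 CPM (-2.91, -3.73 to -2.19). At finer clustering the Cdh4 ratio was -4.02 in spinous-like and -4.50 in cycling cells, and with doublets kept -0.94 (-1.82 to -0.18) and -3.65. At 1 week cycling cells went from 15.6 to 1.27 CPM (55 and 4 UMIs), but the Ube2c-led cluster alone held all 4 experimental UMIs and 0 control UMIs, so that difference was not seen within it. The 20 experimental basal-like cells held 1 UMI. Follicle classes were too low for a comparison, with 13 and 14 UMIs in bulge-like cells at 1 day. With doublets kept, the Cdh4 ratio in bulge-like cells was -1.91 (-2.70 to -1.21) at 1 day and -2.78 (-4.49 to -1.41) at 1 week. Thinned to 2000 UMIs, 8.38% of control and 4.22% of experimental basal-like cells had a Cdh4 UMI at 1 day (unthinned 17.9% and 5.80%), beside 1.28% and 0.474% of fibroblast-like cells.

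Cdh13, which encodes the tail-less T-cadherin, was lower in experimental keratinocytes at both times. It was at 69.5 CPM (68.0 to 71.1) and 36.6 CPM (35.2 to 38.1) at 1 day, a log2 ratio of -0.93 (-0.99 to -0.86), and at 76.0 CPM (73.7 to 78.3) and 49.3 CPM (46.9 to 51.9) at 1 week, a ratio of -0.62 (-0.71 to -0.54). Equal weight of classes gave -0.44 and -0.45. In the 1-day control bulge-like cells held 159 CPM, cycling cells 132 CPM and basal-like cells 114 CPM, each apart from its neighbour, while spinous-like (4.60 CPM) and granular-like cells (4.47 CPM) held little. In the 1-week control bulge-like (144 CPM), basal-like (130 CPM) and cycling cells (128 CPM) did not differ beyond counting error between neighbours.

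Within classes Cdh13 was lower in 7 of 14 at 1 day, higher in 2 and within counting error in 5. Bulge-like cells went from 159 to 120 CPM (log2 ratio -0.40), basal-like from 114 to 71.5 CPM (-0.68) and cycling cells from 132 to 76.0 CPM (-0.80). The 2 classes with higher values were those with little Cdh13, spinous-like (4.60 to 9.68 CPM) and granular-like cells (4.47 to 14.1 CPM). At finer clustering both intervals for Cdh13 included 0, with ratios of 0.35 and 0.38. With doublets kept the ratio was 1.11 (0.63 to 1.56) in spinous-like but -0.44 (-0.88 to 0.03) in granular-like cells, and without free-RNA-like barcodes it was 0.81 (0.18 to 1.39) and 1.51 (0.60 to 2.51). Of the granular-like cells 323 of 335 in the control, but 516 of 828 in the experimental library, came from the cluster led by Flg2 and Wfdc21. At 1 week bulge-like cells were at 144 and 140 CPM, a log2 ratio of -0.04 (-0.20 to 0.11), cycling cells at 128 and 91.7 CPM (-0.48) and sebaceous-like cells at 76.5 and 23.0 CPM (-1.74). In the sebaceous cluster led by Akr1c18 alone, Cdh13 was at 77.1 and 26.1 CPM from 90 and 21 UMIs, and at finer clustering the sebaceous-like ratio was -0.96 (-1.77 to -0.16). Upper follicle-like cells were at 7.49 and 13.2 CPM (0.82, 0.14 to 1.53), but with doublets kept the interval for Cdh13 included 0 (0.59, -0.18 to 1.39). With doublets kept bulge-like cells had a ratio of -0.29 (-0.43 to -0.15).

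**Figure D4:**
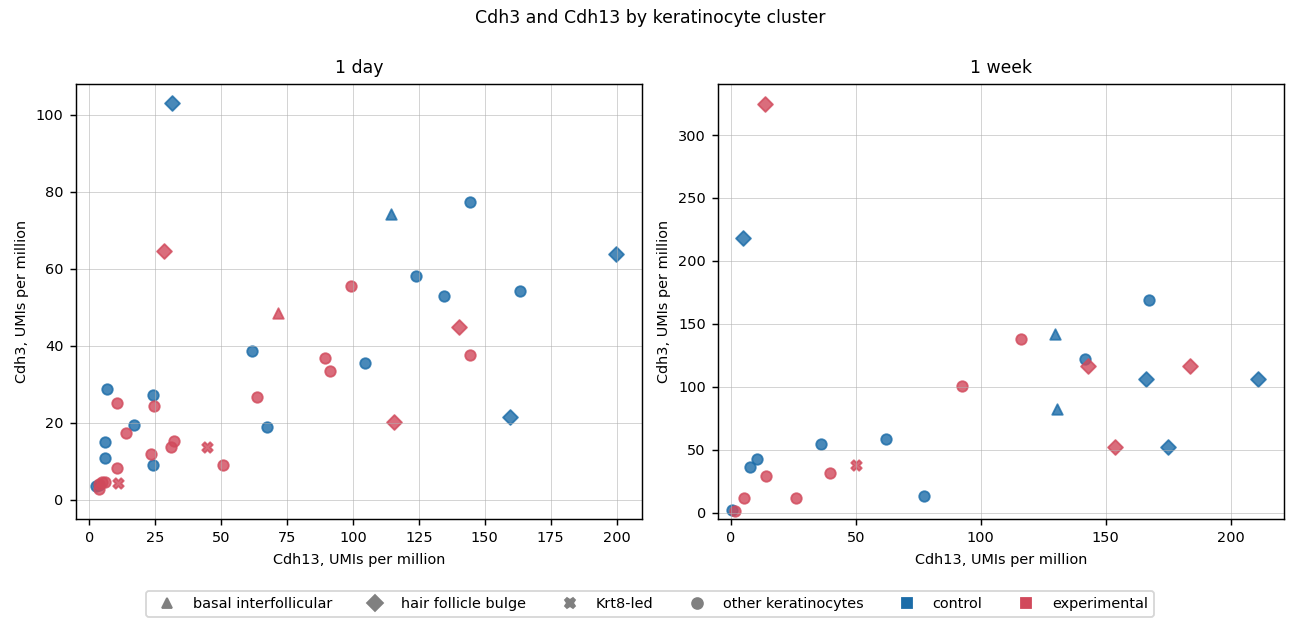
Cdh3 (vertical axis, CPM) against Cdh13 (horizontal axis, CPM) in each keratinocyte or Krt8-led cluster with at least 190 cells in all and 50 in that library, at 1 day (left) and 1 week (right); blue is control and red experimental, and shapes give the class. At 1 day 1 of the 3 bulge-like clusters, with 200 CPM of Cdh13 and 63.7 CPM of Cdh3 in the control, is high in both, while the Fam13a cluster stands apart with much Cdh3 (103 CPM in the 1-day and 218 CPM in the 1-week control) and little Cdh13 (31.2 and 5.01 CPM).

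The plot of Cdh3 against Cdh13 by cluster shows where the 2 genes part. In the Fam13a cluster Cdh13 was at 31.2 and 28.3 CPM at 1 day, but 5.01 and 13.5 CPM at 1 week (6 and 9 UMIs). Cells led by Ramp1, Sncg and Cd34 were the reverse, with Cdh13 at 159 and 116 CPM at 1 day and little Cdh3. The remaining bulge-like cells, led by Krt24, S100a4 and Cd34, had much of both at 1 day, with Cdh13 at 200 and 140 CPM and Cdh3 at 63.7 and 44.9 CPM.

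Ctnna1, which encodes the alpha-catenin of epithelia, was the only one of the 6 higher in experimental keratinocytes at both times. It was at 274 CPM (271 to 277) and 330 CPM (326 to 334) at 1 day, a log2 ratio of 0.27 (0.24 to 0.29), and at 250 CPM (246 to 254) and 276 CPM (270 to 282) at 1 week, a ratio of 0.14 (0.11 to 0.18). With equal weight of classes the ratios were 0.26 and 0.17, and with TMM scaling the 1-week ratio of Ctnna1 was 0.05. Control keratinocyte classes spanned 185 to 293 CPM at 1 day, from sebaceous-like to spinous-like, and 123 to 273 CPM at 1 week, from sebaceous-like to basal-like.

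Within classes Ctnna1 was higher in 9 of 14 at 1 day and lower in 0, with 5 within counting error. One of the 9 was cycling cells, whose Ctnna1 ratio was -0.02 (-0.15 to 0.11) at finer clustering and 0.05 (-0.04 to 0.14) with doublets kept. In granular-like cells, within counting error in the main setting, it was 0.20 (0.08 to 0.33) at finer clustering. It was 0.80 (0.69 to 0.92) there with doublets kept and -0.12 (-0.27 to 0.03) without free-RNA-like barcodes. Sebaceous-like cells went from 185 to 273 CPM (log2 ratio 0.56) and upper follicle-like cells from 256 to 327 CPM (0.35), while basal-like cells were at 291 and 315 CPM (0.12, -0.02 to 0.25). The sebaceous-like class drew on its 2 clusters in different shares, as given for Cdh1, and at finer clustering its Ctnna1 ratio was 0.58 (0.42 to 0.74). At 1 week Ctnna1 was higher in 2 of 5 classes and lower in 0. Those were bulge-like cells, from 245 to 314 CPM (0.36, 0.24 to 0.47), and upper follicle-like cells, from 242 to 317 CPM (0.39, 0.27 to 0.51). Fibroblast-like cells at 1 day went from 227 to 333 CPM and T cell-like cells from 154 to 296 CPM, while antigen-presenting-like (525 and 545 CPM) and melanocyte-like cells (287 and 314 CPM) did not differ beyond counting error in Ctnna1.

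Ctnnd1, the catenin delta-1 gene, was within counting error at 1 day and lower at 1 week. In keratinocytes it was at 192 CPM (190 to 195) and 189 CPM (185 to 192) at 1 day, a log2 ratio of -0.03 (-0.06 to 0.00), whose sign changed between settings. At 1 week it was at 253 CPM (249 to 257) and 169 CPM (164 to 173), a ratio of -0.58 (-0.63 to -0.54), and -0.48 with equal weight of classes. In controls spinous-like cells were at 246 CPM at 1 day and 303 CPM at 1 week, basal-like at 163 and 239 CPM, and bulge-like at 129 and 176 CPM.

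At 1 day Ctnnd1 was higher in 2 of 14 classes, bulge-like (129 to 148 CPM) and cycling cells (130 to 152 CPM), lower in 2 and within counting error in 10. Granular-like cells, 1 of the 2 with lower values, went from 161 to 143 CPM (log2 ratio -0.17, -0.34 to 0.00). That Ctnnd1 ratio was 0.60 (0.45 to 0.74) with doublets kept, 0.08 (-0.07 to 0.23) at finer clustering and -0.25 (-0.43 to -0.07) without free-RNA-like barcodes, so its sign changed between settings. Neither higher value of Ctnnd1 held in every setting. At finer clustering the ratio was 0.20 (0.07 to 0.33) in bulge-like cells. Without free-RNA-like barcodes it was 0.23 (0.08 to 0.37) in cycling cells. With doublets kept the ratio was 0.04 (-0.06 to 0.15) in bulge-like and -0.06 (-0.19 to 0.07) in cycling cells, without free-RNA-like barcodes it was 0.12 (-0.05 to 0.30) in bulge-like cells, and at finer clustering 0.04 (-0.14 to 0.22) in cycling cells. At 1 week it was lower in 4 of 5. Upper follicle-like cells went from 327 to 238 CPM (log2 ratio -0.46), cycling cells from 225 to 145 CPM (-0.63) and sebaceous-like cells from 133 to 90.3 CPM (-0.55), and an unclassed cluster led by Fst and Ccl2 from 239 to 155 CPM (-0.62). At finer clustering the interval for Ctnnd1 in sebaceous-like cells included 0 (-0.30, -0.74 to 0.13). Bulge-like cells were at 176 and 160 CPM (-0.13, -0.27 to 0.01), and at -0.22 (-0.33 to -0.10) with doublets kept.

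Some clusters held almost no control cells. At 1 day 6011 experimental and 8 control cells were Krt8-led, with the simple-epithelial keratin gene Krt8 among their leading genes. They held 706 CPM Cdh1, 8.95 CPM Cdh3, 3.87 CPM Cdh4 and 27.4 CPM Cdh13, with 437 CPM Ctnna1 and 221 CPM Ctnnd1. Against control basal-like cells the log2 ratio was 0.41 for Cdh1, 0.58 for Ctnna1 and 0.44 for Ctnnd1, but -3.05 for Cdh3, -3.52 for Cdh4 and -2.06 for Cdh13. These values pool 2 clusters, 1 of 3076 experimental cells led by Ly6c1 and Krt8 and 1 of 2935 led by Krt8 and Tslp. The former held 52 Cdh3 and 9047 Cdh1 UMIs and the latter 156 and 7373, a difference that the pooled values do not show. A further 3716 experimental and 2 control keratinocytes, led by Slpi and Sprr2 genes and without a class, held 628 CPM Cdh1 with 2.76 CPM Cdh3, 0.724 CPM Cdh4 and 3.57 CPM Cdh13. With the Krt8-led cells counted as keratinocytes the 1-day ratios were 0.31 for Cdh1, -1.34 for Cdh3, -2.83 for Cdh4, -1.02 for Cdh13, 0.38 for Ctnna1 and 0.03 for Ctnnd1. Markers of Merkel cells, which include Krt8, summed to 10.9 CPM in control and 285 CPM in experimental keratinocytes at 1 day, with 2 of 9 at 0 in each, and those of antigen-presenting cells to 165 and 330 CPM, with 0 of 11 at 0.

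At 1 week the same kinds of cells were fewer. The 390 experimental Krt8-led cells together held 470 CPM Cdh1, 55.5 CPM Cdh3, 1.52 CPM Cdh4, 38.3 CPM Cdh13, 339 CPM Ctnna1 and 172 CPM Ctnnd1. Against control basal-like cells of 1 week the log2 ratios were -0.28 for Cdh1, -1.29 for Cdh3, -4.92 for Cdh4, -1.76 for Cdh13, 0.31 for Ctnna1 and -0.48 for Ctnnd1. These pool 2 clusters that differed. One of 231 cells, led by Krt8 and Prl2c3, held 674 CPM Cdh1, 37.8 CPM Cdh3, 419 CPM Ctnna1 and 216 CPM Ctnnd1. The other, of 159 cells and with the mitotic gene Ube2c among its leading genes, held 289 CPM Cdh1, 71.1 CPM Cdh3, 268 CPM Ctnna1 and 132 CPM Ctnnd1. Cdh1 was thus above the control basal-like level in the former and below it in the latter, and the pooled Cdh1 ratio describes neither. In both clusters Cdh4 (1.62 and 1.43 CPM) and Cdh13 (50.1 and 27.8 CPM) were below that level. The 195 cells led by Sprr2d, Slurp1 and Slpi had 603 CPM Cdh1 and only 1.32 CPM Cdh3. In both kinds of cells and at both times Cdh3, Cdh4 and Cdh13 were below the control basal-like level. Control spinous-like cells were low as well, with 10.2 CPM Cdh3, 12.0 CPM Cdh4 and 4.60 CPM Cdh13 at 1 day. In the mixed spinous-like class of the 1-week control these genes were at 25.9, 12.9 and 12.1 CPM. Krt8-led cells had more Cdh13 than control spinous-like cells at both times, and more Cdh3 at 1 week. Low levels of these genes were thus not particular to the Krt8-led and Slpi-led cells.

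Outside the epithelium Cdh1 was found in every class at 1 day, with 354 and 519 CPM in melanocyte-like cells. Cdh13 in endothelial-like cells at 1 week was at 150 CPM (control), within counting error of the bulge-like level, and 280 CPM (experimental), a log2 ratio of 0.90 (0.47 to 1.34) over 114 and 87 cells. The class pools 2 clusters in different shares. One led by Fabp4 and Selp, with 55 cells in each library, had 135 CPM (37 UMIs) and 317 CPM (107 UMIs) of Cdh13, with intervals that did not overlap. The other, led by Ccl21a with the lymphatic marker Lyve1, had 169 CPM (118 to 234) in 59 control cells and 148 CPM (80.7 to 248) in 32 experimental cells, which overlapped. Cdh1 in those cells was at 193 and 32.4 CPM, and Trp63, a keratinocyte gene, at 170 and 32.4 CPM, although endothelium should lack both. The part of RNA from other cells in the Cdh13 values was not tested. T cell-like cells held Cdh1 at 189 and 253 CPM at 1 week, above the fibroblast-like cells, and at 261 and 499 CPM at 1 day. Antigen-presenting-like cells, a class of Langerhans cells, which bind keratinocytes through E-cadherin, and other cells such as a macrophage-marked cluster of 34 control and 16 experimental cells at 1 week, held Cdh1 at 161 CPM (control) and 190 CPM (experimental) at 1 day. Their Cdh1 level at 1 week was 238 and 363 CPM, a log2 ratio of 0.61 (0.24 to 0.98). Ctnna1 in these cells, with 525 and 545 CPM at 1 day, then 406 and 349 CPM at 1 week, was above that of the control keratinocytes of each time.

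Cdh3 was also high in melanocyte-like cells, with 131 CPM (33 UMIs) in the 1-day control and 79.5 CPM (19 UMIs) in the experimental library, where the intervals overlap. The 38 and 30 melanocyte-like cells at 1 week held 368 and 516 CPM of Cdh3, from 32 and 52 UMIs. T cell-like cells of the 1-week experimental library had 0 UMIs of Cdh3, with an exact interval up to 14.8 CPM, beside 12.9 CPM in the control, so a difference was not detectable at this depth. Cdh4 was highest in fibroblast-like cells at 1 week, at 108 and 73.9 CPM (69 and 19 UMIs), but at only 8.08 and 3.75 CPM in the fibroblast-like cells of 1 day. The 1-day cells were led by Tnfaip6, Serpine2 and Col3a1, and the larger 1-week cluster by Dcn and Col1a1.

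The 1-day matrices also hold 4 antibody tags called hashtags, whose meaning is not given in the sources used here. A leading tag (a share of at least 0.6) could be given to 31.4% of control and 26.2% of experimental keratinocytes, over 3 tags, and cells of the 3 tags share a library and are no replicates. The tags held 1154, 3013 and 2286 control and 333, 3718 and 237 experimental keratinocytes. For Cdh4 the levels of the tags did not overlap between libraries, with 11.7, 19.2 and 11.8 CPM in the control and 2.16, 0.691 and 1.97 CPM (8, 14 and 4 UMIs) in the experimental library. Cdh13 (64.9, 66.8 and 66.0 against 39.5, 31.8 and 55.1 CPM) and Ctnna1 (232, 305 and 282 against 339, 319 and 327 CPM) did not overlap either, although the intervals of their nearest tags did. Cdh3 did, with 29.2, 50.5 and 31.0 CPM against 19.2, 14.1 and 30.5 CPM, as did Cdh1 (407, 549 and 510 against 595, 524 and 693 CPM) and Ctnnd1 (177, 209 and 209 against 193, 190 and 213 CPM). The share of all genes whose tag levels also fail to overlap is not given here, so nothing is read from this split.

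Partners of the 6 genes at the adherens junction did not move as a block. Of 32 other catenin and junction genes 30 had at least 100 UMIs at 1 day, of which 4 were lower and 1 higher by 1.5 times (5.84% and 11.3% of all genes), with a median log2 ratio of 0.02 beside 0.01 over all genes. The lowest were Lima1, an actin-binding partner of alpha-catenin (-1.11), Pkp4 (-0.98), a relative of catenin delta-1, and Ajuba (-0.81). The highest were Adam10 (0.82), the protease that sheds E-cadherin, Nectin4 (0.54) and Nectin3 (0.54). At 1 week 6 of 30 were lower and 7 higher (9.91% and 16.9% of all genes), with a median of -0.17 beside 0.08. Pkp4 (-1.11), Limd1 (-1.03) and Ctnnal1 (-0.89) were lowest and Actn1 (1.29), Ptprk (1.14) and Evl (0.85) highest. Beta-catenin (Ctnnb1) was at 219 and 220 CPM at 1 day, then at 259 and 296 CPM at 1 week. Plakoglobin (Jup) was at 788 and 709 CPM, then at 1145 and 947 CPM.

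Of 31 other cadherins outside desmosomes only 11 reached 100 UMIs at either time. At 1 day 2 were lower and 1 higher by 1.5 times (all genes 5.84% and 11.3%), with a median of -0.11: the giant cadherin Fat2 (-1.21), Clstn1 (-0.64) and Celsr1 (-0.38) were lowest, and the protocadherins Pcdh1 (0.72) and Pcdh7 (0.40) and the calsyntenin Clstn3 (0.31) highest. At 1 week 2 were lower and 3 higher (all genes 9.91% and 16.9%), with a median of -0.01. Fat2 (-0.91), Celsr1 (-0.88) and Fat1 (-0.58) were lowest and Clstn3 (2.39), Cdh11 (0.91) and Pcdh1 (0.69) highest. In these 1-week keratinocytes the summed markers of smooth muscle were at 95.2 and 216 CPM, with 0 of 8 at 0, and those of Merkel cells at 14.1 and 139 CPM, with 3 and 1 of 9 at 0, and their part was not tested.

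Among 20 known regulators of Cdh1, Trp63 included, 15 reached 100 UMIs at 1 day, of which 2 were lower and 4 higher (all genes 5.84% and 11.3%), with a median of 0.06. At 1 week 14 reached it, of which 4 were lower and 3 higher (all genes 9.91% and 16.9%), with a median of -0.12. Snai2, a repressor of Cdh1, was lower at both times, with log2 ratios of -1.13 (38.2 to 17.5 CPM) and -1.73 (84.2 to 25.4 CPM). The other lowest were Trp63 (-1.59) and Ovol2 (-0.12) at 1 day and Trp63 (-1.48) and Twist1 (-1.24, 2.53 to 1.07 CPM) at 1 week. The epithelial activators Elf3 (4.03 to 68.1 CPM, 4.08, and 6.84 to 164 CPM, 4.58) and Grhl3 (36.8 to 99.1 CPM, 1.43, and 0.88 at 1 week) were among the highest, with Klf4 (0.59) at 1 week. The repressors Zeb2 (2.69, 0.186 to 1.20 CPM) and Zeb1 (1.81, 1.29 to 4.54 CPM) were high at 1 day, where the summed markers of antigen-presenting cells given above also differed. Their part in these values was not tested. At 1 week Zeb2 was lower (-0.69, 2.52 to 1.56 CPM), and Zeb1, under 100 UMIs, was at 1.15 and 0.619 CPM. Summed T cell markers in keratinocytes were at 6.69 and 12.1 CPM at 1 day, but at 30.67 and 11.04 CPM at 1 week. Those of antigen-presenting cells were at 304 and 278 CPM at 1 week. Markers of melanocytes, endothelium, smooth muscle and Merkel cells were higher in the experimental library at 1 week. The part of such RNA in the 1-week values of Zeb1, Zeb2 and Twist1 was not tested.

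Genes whose level followed each member over the cell classes were named by a fixed rule, as the 3 with the highest Pearson correlation of log2 CPM over classes and both libraries (25 points and 8762 genes at 1 day, 22 points and 7899 genes at 1 week). The points share libraries and depth, so the values only describe. For Cdh1 these were Plet1 (0.95), S100a14 (0.94) and Ralgps2 (0.91) at 1 day and Larp4b (0.93), Mink1 (0.91) and Phldb3 (0.91) at 1 week. For Cdh3 they were Tmtc2 (0.87), Socs7 (0.86) and Zfp1 (0.84), then Ovol2 (0.93), the basal keratin Krt5 (0.93) and palladin (Palld, 0.92). Cdh4 went with Adam8 (0.83), Tent5a (0.80) and Mark3 (0.79) at 1 day and with Mmp3 (0.89), Antxr1 (0.83) and Cpxm2 (0.82) at 1 week.

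Cdh13 followed the Notch ligand gene Jag2 (0.92), caveolin Cav1 (0.92) and Palld (0.91) at 1 day, and Col18a1 (0.93), the caveola gene Cavin3 (0.93) and Schip1 (0.91) at 1 week. Ctnna1 went with Wsb2 (0.91), Wnk2 (0.86) and Ckap4 (0.84), then with Cxcl16 (0.89), Fnbp1l (0.89) and Mb21d2 (0.88). Ctnnd1 went with Tpd52 (0.84), Ghr (0.80) and Sptlc2 (0.79), then with Myo10 (0.92), Il13ra1 (0.91) and Plxnb2 (0.89). Only Palld was named for more than 1 member, and 0 genes were named for the same member at both times.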

How the data were processed

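Single-cell RNA was counted in 4 libraries of mouse epidermis, 1 per group. The deposited matrices hold whole UMI counts per gene and barcode, and the submitters' processing notes name Cell Ranger 5.0.1, Seurat and build mm10. Of 32285 identifiers 99.6% were found in GENCODE M21. Barcodes needed at least 500 UMIs and 300 genes, and mitochondrial UMIs of no more than 15%. The highest Scrublet scores (scanpy 1.11.5) were removed at 0.8% per 1000 barcodes. At 1 week barcodes under 3000 UMIs that lay close to the profile of the lowest 10% of barcodes by UMIs were left out before clustering (58.4% and 72.4% of cells). Leiden clustering (leidenalg 0.10.2, resolution 1, 2000 variable genes, 30 components) was run per time point without the genes reported here. Limits for class names, and the minimum of 190 cells for a cluster shown on its own, were set after the data were seen, and doublets of 1 type can remain.

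Counts were summed per class and divided by gene UMIs. Intervals are exact (Poisson, binomial). They were run on simulated Poisson counts without variation between animals or free RNA, which checks the arithmetic only. TMM factors came from edgeR 4.0.16. The 6 genes and the gene lists were chosen with earlier results of these data known. Genes named from lists are up to 3 at either end.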

Additional observations from a re-analysis of the deposited data

Results flagged for a closer look

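The Cdh1 ratio in keratinocytes had opposite signs at the 2 times, with a log2 ratio of 0.21 at 1 day and -0.38 at 1 week. The difference was not tested, since each group is 1 library and the times used different kits. Fibroblast-like cells held 122 CPM of Cdh1 in the control and 540 CPM in the experimental library at 1 day.

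Antibody tag counts lie outside the gene matrix proper. The 1-day control library held 16386704 hashtag UMIs and the 1-day experimental library 12293061, nearly all in 3 of 4 tags. The fourth tag had 2256 and 1425 UMIs.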

How the results depend on the processing

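With 1 library per group, no replicate could be left out. No paired analysis was possible because each group has 1 library. Over 13 alternatives at 1 day and 11 at 1 week, the number of the 6 genes below control stayed at 3 to 4 and at 5, and 0 of the 6 ratios at 1 week changed sign. Of all genes passing the filter of 100 UMIs, 32.3% had an interval below 0 at 1 day and 35.1% above 0. At 1 week these shares were 29.7% and 42.0%. The 6 genes were chosen on this contrast, so nothing is read from the count. The median ratio of -0.48 at 1 day became -0.54 with TMM scaling, -0.58 with totals leaving out mitochondrial and ribosomal-protein genes, -0.54 with at least 3000 UMIs per cell, -0.53 without free-RNA-like barcodes and -0.23 with equal weight of classes. At 1 week -0.59 became -0.68 with TMM, -0.67 with those totals, -0.49 as a mean of per-cell CPM and -0.34 with equal weight. Leaving out free-RNA-like barcodes and equal weight were added after the data were seen. Equal weight also leaves out classes with under 50 cells in a library, and the cause was not tested. The count lower by 1.5 times was 3 in all settings at 1 day but equal weight (1), and 1 to 4 at 1 week (4 with TMM, 2 with doublets kept, 1 with equal weight). Ratios ranged from 0.11 to 0.32 (Cdh1), -1.34 to -0.56 (Cdh3), -3.88 to -1.96 (Cdh4), -1.05 to -0.44 (Cdh13), 0.16 to 0.38 (Ctnna1) and -0.13 to 0.04 (Ctnnd1) at 1 day. At 1 week they ranged from -0.49 to -0.24, -0.68 to -0.17, -4.99 to -2.31, -0.72 to -0.45, 0.05 to 0.20 and -0.68 to -0.48. Without a minimum of 100 UMIs, the share of all genes differing by 1.5 times was 32.4% in place of 17.1% at 1 day. Cdh4 in experimental cells rests on 112 and 19 UMIs.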
